A study of Arabidopsis thaliana with 24 samples.

Results

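GI (GIGANTEA, AT1G22770) and XCT (XAP5 CIRCADIAN TIMEKEEPER, AT2G21150) are clock-associated genes of Arabidopsis thaliana, and their transcripts were followed here across an experiment on the clock gene TOC1. Each was found by its name in the array's probe annotation, each had 1 probe set, and together they are 2 of the 13286 genes with a named probe set. RNA came from whole seedlings of 13 days and was hybridised to 24 Affymetrix arrays, 3 for each of 8 groups. All seedlings had been entrained for 12 days in cycles of 12 h light and 12 h dark and then spent 1 more day either in constant light (LL) or in the same light-dark cycles (LD). They were submerged for 3 h in Murashige-Skoog medium that held 20 mM MG132, as the labels write the dose of this proteasome inhibitor. All were harvested at ZT1, which is 1 h after dawn in LD. In LL the light was constant, and ZT1 is counted from the dawn of the earlier cycles. The 4 LL groups were ALC::TOC1 with 2.5% ethanol, ALC::TOC1 mock, wild-type Col-0 with 2.5% ethanol and wild-type Col-0 mock, and the 4 LD groups were the same combinations. In ALC::TOC1 an ethanol-responsive switch controls TOC1. No group carried the switch without TOC1, the promoter that drives the switch and the number of lines are not given in the sources used here, and MG132 was present in mock and ethanol groups alike.

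TOC1 is an evening-phased repressor of the plant clock. GI is a large plant-specific protein whose transcript is highest late in the day and low around dawn. It stabilises ZEITLUPE, the F-box protein that targets TOC1 for degradation, and acts with FKF1 in the removal of CDF repressors during photoperiodic flowering. XCT is a nuclear protein of a family conserved among eukaryotes, and plants that lack it have a short circadian period and altered responses to light.

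Values are log2 expression values, and a difference of 1 is a doubling. A probe set was called in a comparison when limma's test gave a Benjamini-Hochberg adjusted p under 0.05 over the 22746 probe sets tested. The array medians lay between 5.146 and 5.421, and arrays of the same group correlated at 0.9885 to 0.9968 over all probe sets. TOC1 was not analysed here, since it was not matched to a probe set that the annotation used gives to 1 gene, so induction could not be checked. Of 11 leaf markers, 3 were measured and were bright in all groups: RCA (rubisco activase) had group means of at least 12.8, SBPASE (a Calvin cycle enzyme) of at least 9.79 and ATPC1 (a chloroplast ATP synthase subunit) of at least 10.4. The 1 root marker measured of 11, EXPA7 (a root hair expansin), had group means of at most 5.04. The labels do not say whether the 3 replicates of a group were grown separately, so the p-values measure only the spread between these samples. In RNA from whole seedlings, fewer cells of a type and less RNA per cell cannot be told apart.

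GI spanned a wide range. Its values ran from 4.77 to 7.51 over the 24 arrays, and its group means spanned 2.45 log2 units, a 5.46-fold range, with a pooled SD of 0.257 between replicates. Wild-type LD ethanol arrays were the highest, with a mean of 7.39 ± 0.14 (SD, n = 3, as for every mean here), and no array of the next group, ALC::TOC1 LD ethanol at 6.71 ± 0.23, reached them. From there down, ALC::TOC1 LD mock (6.54 ± 0.13), wild-type LD mock (6.32 ± 0.49), wild-type LL ethanol (5.87 ± 0.34) and ALC::TOC1 LL ethanol (5.68 ± 0.02) each overlapped the group above it. ALC::TOC1 LL mock (5.18 ± 0.12) lay below ALC::TOC1 LL ethanol without overlap. Wild-type LL mock (4.94 ± 0.26) was the lowest mean and overlapped ALC::TOC1 LL mock. These LL mock means lay below the average array medians of their groups, 5.362 in ALC::TOC1 and 5.376 in wild type. GI was thus dim there, and what this does to the folds that use these groups was not tested.

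**Figure D1:**
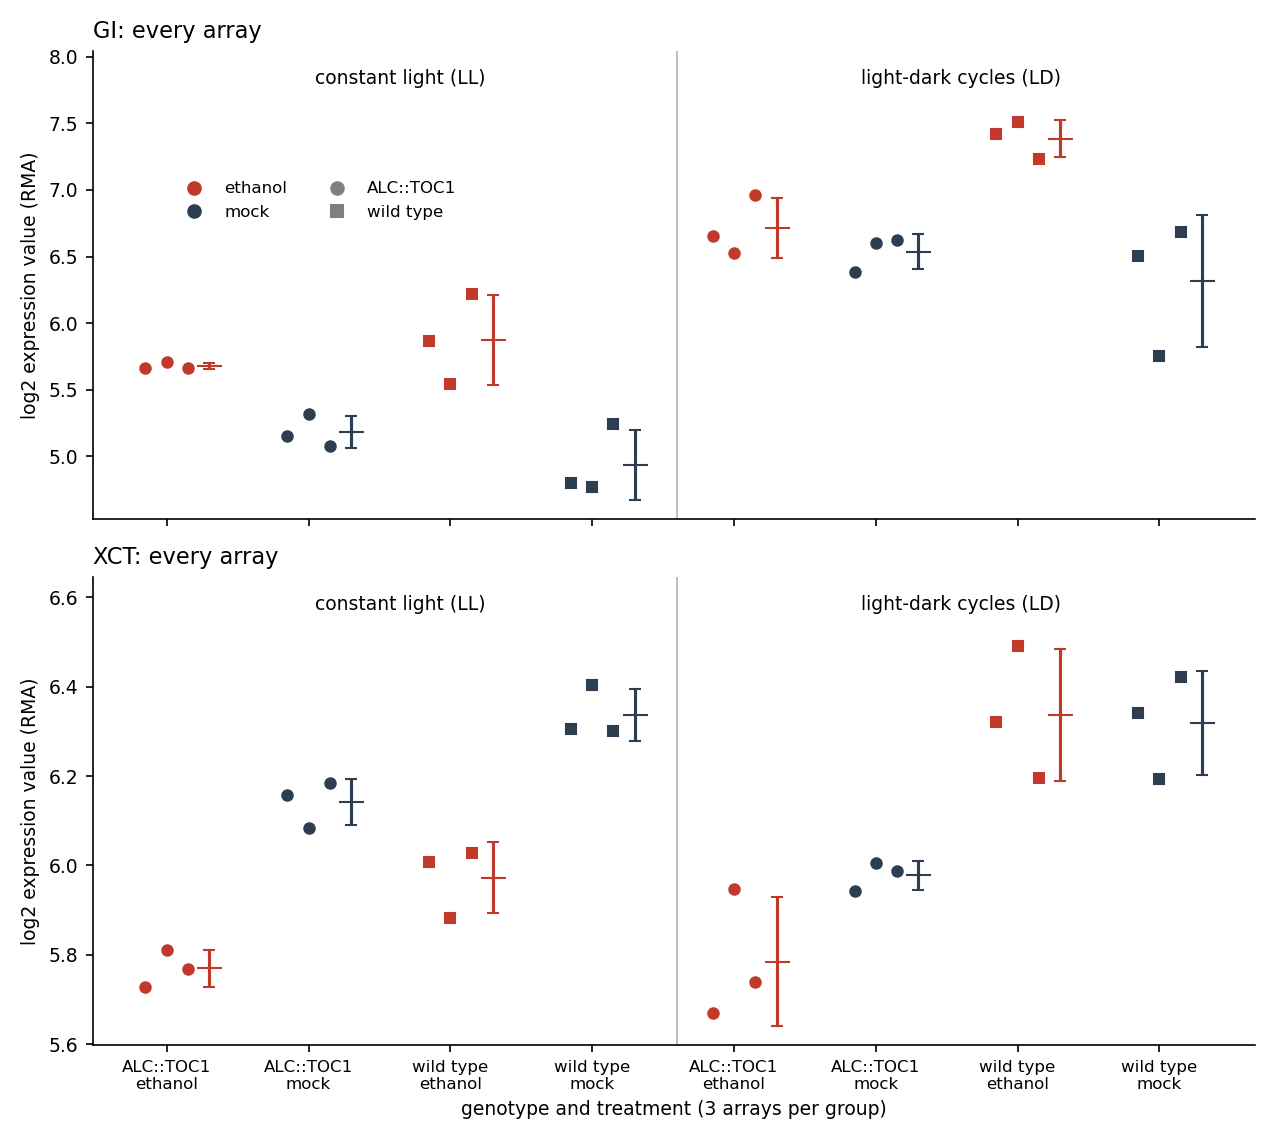
log2 expression values (y axis) of GI (upper panel) and XCT (lower panel) on all 24 arrays, by group (x axis); points are arrays, red for ethanol and dark for mock, circles for ALC::TOC1 and squares for wild type, and each bar beside them is the group's mean ± SD (n = 3). The GI arrays of LD lie mostly above those of LL, with wild-type LD ethanol highest at 7.23 to 7.51, while the XCT arrays of ALC::TOC1, at 5.67 to 6.18, lie below the wild-type arrays of the same light and treatment but overlap the wild-type arrays of other groups, which span 5.88 to 6.49 in all.

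GI was lower in LL than in LD in both genotypes and under both treatments. With ethanol, ALC::TOC1 seedlings had 5.66, 5.71 and 5.67 in LL, against 6.65, 6.52 and 6.96 in LD. With ethanol, wild-type seedlings had 5.87, 5.54 and 6.22 in LL, against 7.42, 7.51 and 7.23 in LD. In neither pair did the LL and LD arrays overlap. In the mock groups, ALC::TOC1 had 5.15, 5.32 and 5.08 in LL, against 6.38, 6.60 and 6.62 in LD. Mock wild type had 4.80, 4.77 and 5.24 in LL, against 6.51, 5.76 and 6.68 in LD. Again no LL array reached an LD array of the same genotype and treatment, although the second replicate of wild-type LD mock stood below its group. Over all groups, the 12 LL arrays had a median of 5.43 and the 12 LD arrays a median of 6.64, and 1 LD array, that same replicate, fell below the highest LL array, while 2 of the 12 LL arrays lay above the lowest LD array. GI passed the test in all 4 light comparisons. LL minus LD was -1.03 ± 0.19 (SE) in ALC::TOC1 with ethanol (adjusted p 0.000524), -1.51 ± 0.19 in wild type with ethanol (2.49e-06), -1.35 ± 0.19 in ALC::TOC1 mock (3.09e-05) and -1.38 ± 0.19 in wild-type mock (1.94e-05), so that the LL level was 0.351 to 0.488 of the LD level. In these comparisons, in the same order, 21.9%, 38.9%, 24.1% and 27.7% of all probe sets were called, and 36.9%, 44.9%, 43.3% and 38% had groups without overlap, so a call by itself was common. No alternative setting lost any of the 4 calls. Without the second wild-type LD mock replicate, the wild-type mock difference was -1.66. EXPA7, the root marker, was higher in LL than in LD in 3 of these comparisons, by 0.82 in ALC::TOC1 and 1.04 in wild type with ethanol and by 0.62 in ALC::TOC1 mock, while its difference in wild-type mock was 0.13 and not called. The leaf marker ATPC1 was also higher in LL in those 3, by 0.57 in ALC::TOC1 and 0.72 in wild type with ethanol and by 0.42 in ALC::TOC1 mock, with 0.21 in wild-type mock, not called. SBPASE was called higher in LL in wild type with ethanol, by 0.76, and RCA in none of the 4. The part of these markers in the result was not tested.

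Ethanol raised GI in wild-type seedlings of both light regimes, and no such call was made in ALC::TOC1. In LL, wild-type seedlings had 5.87, 5.54 and 6.22 with ethanol, against 4.80, 4.77 and 5.24 without, a rise of 0.94 ± 0.19 or 1.92-fold (adjusted p 0.00191). In LD, wild-type seedlings had 7.42, 7.51 and 7.23 with ethanol, against 6.51, 5.76 and 6.68 without, a rise of 1.07 ± 0.19 or 2.1-fold (adjusted p 0.000293). The arrays of the ethanol and mock groups did not overlap in either regime. In ALC::TOC1, GI had 5.66, 5.71 and 5.67 with ethanol in LL, against 5.15, 5.32 and 5.08 in mock, a difference of 0.50 ± 0.19 (1.41-fold) that missed the threshold (adjusted p 0.0913) although the arrays did not overlap. In LD, ALC::TOC1 had 6.65, 6.52 and 6.96 with ethanol, against 6.38, 6.60 and 6.62 in mock, with overlap and a difference of 0.17 ± 0.19 (adjusted p 0.617). The 95% interval of that difference ran from -0.226 to 0.576, and that of the LL difference from 0.095 to 0.897. Of all probe sets, 15.4% were called in ALC::TOC1 LL, 15.8% in wild-type LL, 18.7% in ALC::TOC1 LD and 26.1% in wild-type LD, in either direction as in all such shares here, and 31.4%, 30%, 36.4% and 34.9% had groups without overlap.

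Some of these results depended on the arrays used. Leaving out replicate 1 of every group ended the wild-type LL call (0.87, adjusted p 0.0883), and leaving out the second wild-type LD mock replicate, which is in neither ALC::TOC1 LL group, made the ALC::TOC1 LL difference a call (adjusted p 0.0298). Without that replicate the wild-type LD rise was 0.79 (adjusted p 0.00221). Other measures moved with the same comparisons. In wild-type LL, EXPA7 rose with ethanol by 0.86 ± 0.15 and ATPC1 fell, at -0.40 ± 0.13 (adjusted p 0.0446). There the difference between the 3 prime and 5 prime GAPDH control probe sets, a sign of RNA integrity, averaged 1.02 ± 0.11 with ethanol and 1.45 ± 0.15 in mock. With that difference as a covariate, the GI rise was 0.80 (adjusted p 0.04). In wild-type LD, the leaf markers ATPC1, SBPASE and RCA fell with ethanol, at -0.91, -0.71 and -0.32. Beyond these values, their part in the result was not tested.

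Between the genotypes, GI differed in 1 of 4 comparisons. With ethanol in LD, ALC::TOC1 seedlings had 6.65, 6.52 and 6.96, against 7.42, 7.51 and 7.23 in wild type. Every ALC::TOC1 array lay below every wild-type array, in a comparison where 27.9% of all probe sets had groups without overlap. GI was lower, at a difference of -0.67 ± 0.19 or 0.627 of the wild-type level (adjusted p 0.0226), where 14.3% of all probe sets were called. This call was lost in 6 of 35 alternative settings, including those without wild-type LD ethanol replicate 1 (-0.66, adjusted p 0.0673) or 2 (-0.61, 0.0924) and without ALC::TOC1 LD ethanol replicate 1 (-0.64, 0.0886) or 2 (-0.58, 0.105). With ethanol in LL, where 24.5% of all probe sets were called, the genotypes overlapped and the difference was -0.20 ± 0.19 (adjusted p 0.53). They also overlapped in mock, with a difference of 0.25 ± 0.19 in LL (adjusted p 0.52, with 5.96% of all probe sets called) and of 0.22 ± 0.19 in LD (0.618, with 5.53%). The LD mock difference was -0.06 without the second wild-type LD mock replicate. Under ethanol in LD, SBPASE, ATPC1 and RCA were higher in ALC::TOC1 than in wild type by 1.13, 0.50 and 0.37, and their part in the GI difference was not tested.

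That ethanol moved GI past the threshold in wild type and not in ALC::TOC1 does not show that the genotypes differed in their response, and the direct tests of that difference did not pass. The response of ALC::TOC1 to ethanol, less the response of wild type, was -0.44 ± 0.27 in LL (adjusted p 0.487) and -0.90 ± 0.27 under LD (0.163). This is the genotype by ethanol interaction. Its mean over the regimes was -0.67 ± 0.19, with a 95% interval of -1.07 to -0.267 and an adjusted p of 0.0976. It became a call without wild-type LD mock replicate 3 (-0.76, adjusted p 0.0497). Of all probe sets, 1.88% were called for this interaction in LL, 0.413% in LD and 1.46% for the mean. Its LL value exceeded its LD value by 0.45 ± 0.39 (adjusted p 0.657, with 0.189% of all probe sets called). The interactions of light with ethanol were 0.32 ± 0.27 in ALC::TOC1 (adjusted p 0.763) and -0.13 ± 0.27 in wild type (0.847), and those of genotype with light were 0.48 ± 0.27 with ethanol (0.251) and 0.02 ± 0.27 in mock (0.98). All probe sets had 1% and 5.93% called for the first pair and 17.8% and 0.519% for the second. GI passed in 7 of 12 comparisons of 2 groups and in 0 of 8 interactions by limma's test. Of the interactions, the LD one (0.00357) and the mean (0.00232) of genotype and ethanol had an unadjusted p under 0.05 by that test. So did 2818 of the 22746 probe sets in the LD one and 3079 in the mean. Many of these comparisons share arrays, so their results are not independent of each other.

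**Figure D2:**
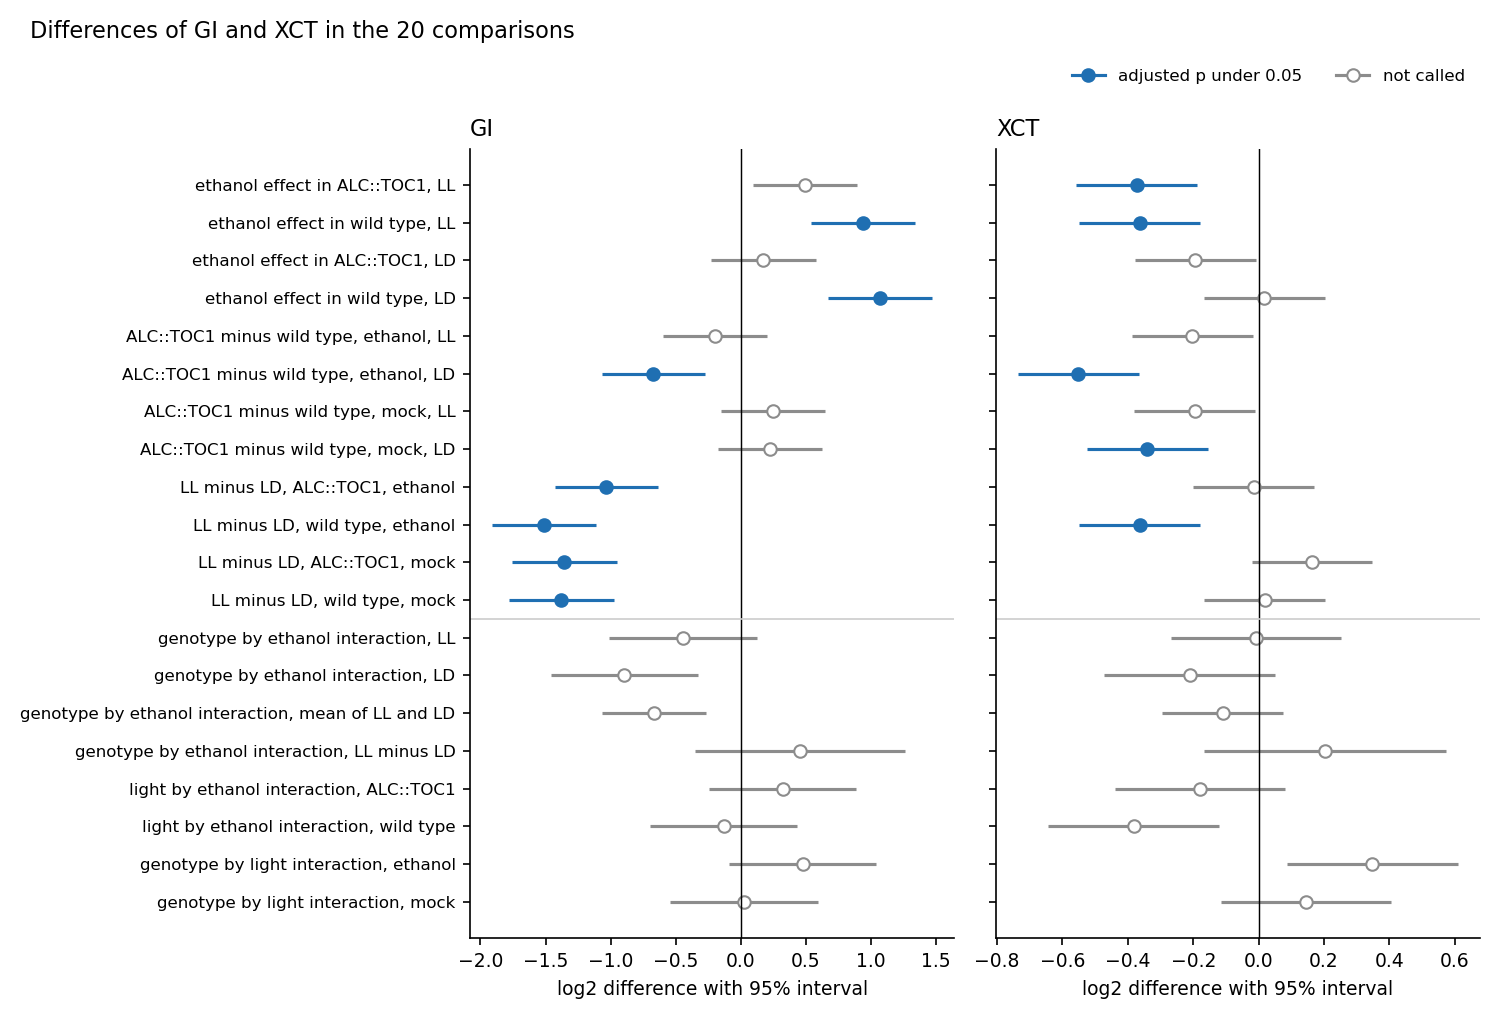
log2 differences (x axis) of GI (left) and XCT (right) in the 12 comparisons of 2 groups and, below the grey line, the 8 interactions; points are limma estimates, bars their 95% intervals, and filled points passed an adjusted p of 0.05. The GI calls are the 4 LL minus LD differences, both wild-type ethanol effects and 1 genotype difference, and the XCT calls are smaller, from -0.55 to -0.34. The x axes of the panels differ in scale.

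XCT varied far less than GI. Its values ran from 5.67 to 6.49 over the 24 arrays, its group means spanned 0.567 log2 units (1.48-fold), and its pooled SD was 0.0942. Wild-type LL mock (6.34 ± 0.06), wild-type LD ethanol (6.34 ± 0.15) and wild-type LD mock (6.32 ± 0.12) had the highest means and overlapped one another. ALC::TOC1 LL mock (6.14 ± 0.05) came next without overlap, and ALC::TOC1 LD mock (5.98 ± 0.03) lay below that, also without overlap. Wild-type LL ethanol (5.97 ± 0.08), ALC::TOC1 LD ethanol (5.78 ± 0.14) and ALC::TOC1 LL ethanol (5.77 ± 0.04) followed, each overlapping its neighbour above.

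The ALC::TOC1 arrays of XCT lay below the wild-type arrays of the same light and treatment in all 4 comparisons, with no overlap in any, and both LD differences passed the test. With ethanol in LD, ALC::TOC1 had 5.67, 5.95 and 5.74, against 6.32, 6.49 and 6.20 in wild type. The difference was -0.55 ± 0.09, or 0.682 of the wild-type level (adjusted p 0.000341), and its p was the 249th smallest of the 22746 probe sets in a comparison that called 14.3% of them. In LD mock, ALC::TOC1 had 5.94, 6.01 and 5.99, against 6.34, 6.19 and 6.42 in wild type, a difference of -0.34 ± 0.09 (adjusted p 0.025) where 5.53% of all probe sets were called. In LL the differences did not pass. With ethanol in LL, ALC::TOC1 had 5.73, 5.81 and 5.77, against 6.01, 5.88 and 6.03 in wild type (-0.20 ± 0.09, adjusted p 0.104). In LL mock, ALC::TOC1 had 6.16, 6.08 and 6.18, against 6.31, 6.40 and 6.30 in wild type (-0.20 ± 0.09, adjusted p 0.218). Groups without overlap occurred for 36.3% and 27.9% of all probe sets in the ethanol comparisons in LL and LD, and for 23.5% and 24.3% in the mock comparisons. Over all 12 arrays of each genotype, the median was 5.94 in ALC::TOC1 and 6.30 in wild type. The genotypes overlapped at that level, since 7 of the 12 ALC::TOC1 arrays lay above the lowest wild-type array and 3 of the 12 wild-type arrays below the highest ALC::TOC1 array. The LD mock call was lost in 10 of 35 alternative settings, among them those without wild-type LD mock replicate 1 (-0.33, adjusted p 0.0837) or 3 (-0.29, 0.14) and without ALC::TOC1 LD mock replicate 1 (-0.32, 0.0968), 2 (-0.35, 0.0574) or 3 (-0.34, 0.0697). The ethanol LD call was lost without replicate 1 of every group (-0.50, adjusted p 0.0696). The leaf markers that were higher in ALC::TOC1 under ethanol in LD were not called in LD mock. Their differences there were 0.28 for SBPASE, -0.10 for ATPC1 and 0.00 for RCA. In LL, the markers called higher in ALC::TOC1 were EXPA7 in mock, by 0.64 (adjusted p 0.0125), and RCA with ethanol, by 0.25 (0.0444). The part of these markers in the XCT differences was not tested.

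Ethanol lowered XCT in LL in both genotypes. ALC::TOC1 had 5.73, 5.81 and 5.77 with ethanol in LL, against 6.16, 6.08 and 6.18 in mock, a difference of -0.37 ± 0.09 or 0.773 of the mock level (adjusted p 0.00575). Wild type had 6.01, 5.88 and 6.03 with ethanol in LL, against 6.31, 6.40 and 6.30 in mock, a difference of -0.36 ± 0.09 or 0.777 of the mock level (adjusted p 0.00699). In that wild-type comparison EXPA7 rose by 0.86 and ATPC1 fell, at -0.40, and their part in the XCT difference was not tested, while in ALC::TOC1 LL neither these nor RCA or SBPASE were called. Ethanol and mock arrays did not overlap in either genotype, as was so for 31.4% of all probe sets in ALC::TOC1 and 30% in wild type. The shares called were 15.4% in ALC::TOC1 and 15.8% in wild type. In LD the groups overlapped. The difference there was -0.19 ± 0.09 in ALC::TOC1 (adjusted p 0.147) and 0.02 ± 0.09 in wild type (adjusted p 0.918, 95% interval -0.167 to 0.202). The array medians averaged 5.263 with ethanol and 5.362 in mock in ALC::TOC1 LL. After centring arrays on their medians, the ALC::TOC1 LL difference was -0.27 and no longer passed (adjusted p 0.0945), while the wild-type LL difference was -0.33 and did (adjusted p 0.0407). With the GAPDH covariate the wild-type LL difference was -0.39 (adjusted p 0.0336). Leaving out replicate 1 of every group ended both LL calls (adjusted p 0.119 in ALC::TOC1 and 0.0908 in wild type). Leaving out replicate 3 of every group ended the ALC::TOC1 call (0.0956), and leaving out replicate 2 of every group ended the wild-type call (0.104).

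Of the 4 light comparisons, XCT passed the test in 1, that of wild type with ethanol. There XCT had 6.01, 5.88 and 6.03 in LL, against 6.32, 6.49 and 6.20 in LD, with no overlap. The difference was -0.36 ± 0.09 (adjusted p 0.00232). In this comparison 38.9% of all probe sets were called and 44.9% had groups without overlap. EXPA7, SBPASE and ATPC1 were higher in LL in the same comparison, by 1.04, 0.76 and 0.72, and their part in the XCT difference was not tested. The XCT difference was -0.24 without replicate 2 of every group (adjusted p 0.0883). LL minus LD was -0.02 ± 0.09 in ALC::TOC1 with ethanol (adjusted p 0.933), 0.16 ± 0.09 in ALC::TOC1 mock (0.194) and 0.02 ± 0.09 in wild-type mock (0.913). The ALC::TOC1 mock arrays did not overlap, at 6.08 to 6.18 in LL against 5.94 to 6.01 in LD, as was so for 43.3% of all probe sets.

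No interaction of XCT passed the test, in 8 tested with limma, although 2 of them had an unadjusted p of 0.00618 and 0.0114. The first was the light by ethanol interaction in wild type, at -0.38 ± 0.13 (adjusted p 0.0746), which passed without wild-type LD ethanol replicate 3 (-0.45, adjusted p 0.0362). The second was the genotype by light interaction with ethanol, at 0.35 ± 0.13 (adjusted p 0.0592), which passed without wild-type LD ethanol replicate 3 (0.42, 0.026) or ALC::TOC1 LD ethanol replicate 2 (0.43, 0.0278). The share of probe sets called was 5.93% in the first and 17.8% in the second. By limma's test, 4731 and 6960 of the 22746 probe sets had an unadjusted p under 0.05 there, in that order. The genotype by ethanol interaction was -0.01 ± 0.13 in LL (adjusted p 0.988, 95% interval -0.269 to 0.253) and -0.21 ± 0.13 in LD (adjusted p 0.529). XCT passed in 5 of the 12 comparisons of 2 groups.

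The 24 values of each gene were divided among the factors of the design. Light carried 69.1% of the sum of squares of GI, ethanol 17.8%, genotype 0.397% and the genotype by ethanol interaction 4.44%. Genotype carried 46.7% of that of XCT, ethanol 23.4%, the light by ethanol interaction 8.83% and light itself 1.09%. Over all probe sets the medians were 13.2% for light, 7.38% for ethanol and 4.18% for genotype. The light share of GI was above that of 95.7% of all probe sets, and the genotype share of XCT above that of 97.4%. Spread between replicates made up 7.01% in GI and 10.6% in XCT, against a median of 31.8%. Averaged over the other factors, GI was 0.67 higher with ethanol than in mock, and XCT was 0.23 lower. Across the 24 arrays the values of GI and XCT had a Pearson correlation of 0.0019 and a Spearman correlation of 0.0104. These shares and correlations describe the 24 arrays, which share groups, and no test was made of them or of the difference between the genes.

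**Figure D3:**
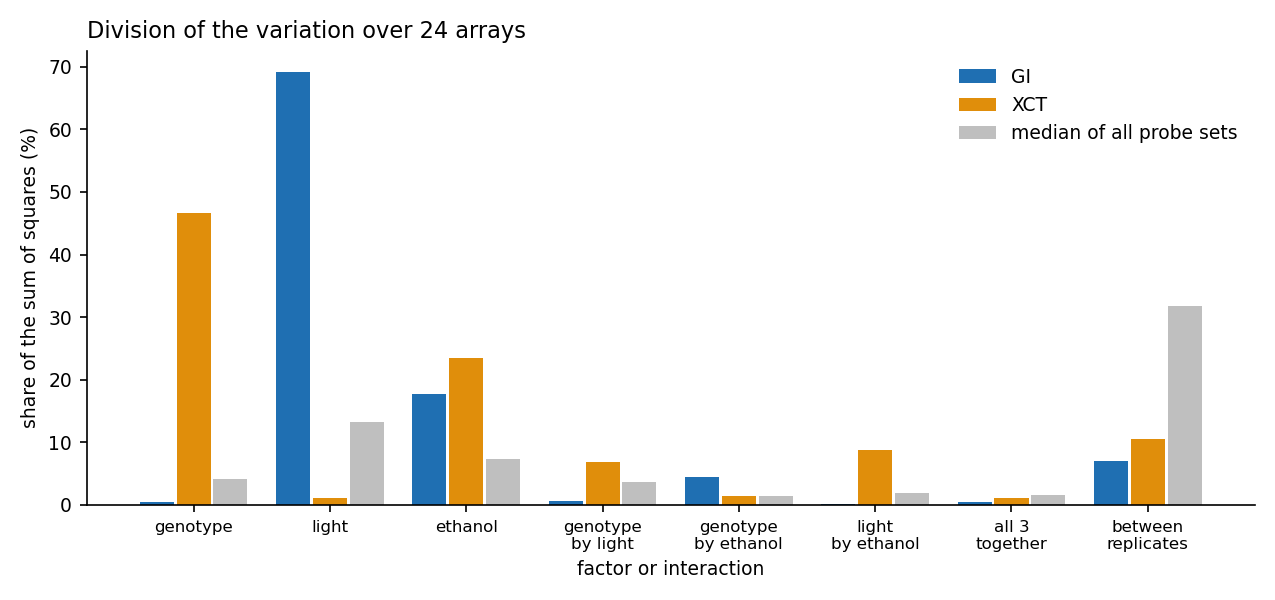
Share of the sum of squares over the 24 arrays (y axis, %) by factor or interaction (x axis) for GI (blue), XCT (orange) and the median of all probe sets (grey). Light is the tallest bar of GI at 69.1% and genotype the tallest of XCT at 46.7%.

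Other clock, photoperiod and small-RNA genes were read from 5 lists with 90 entries. Of these, 9 were matched to a probe set that the annotation gives to 1 gene. They were RVE6 of the 20 central clock genes, and TIC, FIO1, LIP1, COR27 and COR28 of 28 clock-associated genes. The rest were CDF5 and SPY of 22 photoperiod genes and partners of GI, and SE of 11 small-RNA genes. None of 9 photoreceptors was matched. The other entries, among them ZTL, FKF1, CO and FT, were not analysed here. Of the 9, the ethanol comparisons called 0 higher and 1 lower in ALC::TOC1 LL, 2 and 0 in wild-type LL, 2 and 1 in ALC::TOC1 LD, and 3 and 1 in wild-type LD, where 15.4%, 15.8%, 18.7% and 26.1% of all probe sets were called in either direction. Their median ethanol differences were 0.04, -0.05, 0.04 and 0.15 in that order, beside -0.01, 0.02, 0.00 and 0.00 over all probe sets. Between genotypes, 1 was higher and 2 lower in ALC::TOC1 with ethanol in LL, 0 and 3 with ethanol in LD, and 0 and 0 in both mock comparisons, where by limma's test 3 list genes in LL and 0 in LD had an unadjusted p under 0.05. Of all probe sets, 24.5% and 14.3% were called with ethanol in LL and LD, and 5.96% and 5.53% in mock. By the same unadjusted threshold, 4608 of the 22746 probe sets passed in LL mock and 4056 in LD mock. Between light regimes, 1 was higher and 0 lower in LL in ALC::TOC1 with ethanol, 0 and 2 in wild type with ethanol, 1 and 2 in ALC::TOC1 mock, and 1 and 1 in wild-type mock, where 21.9%, 38.9%, 24.1% and 27.7% of all probe sets were called. With counts this small, 1 gene is a large part of each, and nothing is read from them against those shares.

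Of the 9 genes, COR28 (a cold-regulated protein that also acts in the clock and in blue-light signalling) was called higher with ethanol in 3 of the 4 comparisons and was higher in LL than in LD where light differences were called. In ALC::TOC1 LL it was 0.46 higher with ethanol, which was not called (adjusted p 0.0983). With ethanol in LD it averaged 5.82 ± 0.18 in ALC::TOC1 and 7.17 ± 0.29 in wild type, and in LD mock 4.97 ± 0.17 in ALC::TOC1 and 5.19 ± 0.24 in wild type. Its ethanol rise was 1.97 in wild-type LD (adjusted p 1.71e-07), 0.83 in wild-type LL (0.00339) and 0.85 in ALC::TOC1 LD (0.00194), and it was lower in ALC::TOC1 than in wild type with ethanol, at -1.34 in LD (7.35e-05) and -0.64 in LL (0.0127, lost in 3 of 35 settings). It was higher in LL than in LD by 1.06 to 1.50 in the 3 comparisons called, which leave out wild type with ethanol. Its genotype by ethanol interaction, averaged over the regimes, was -0.74 (adjusted p 0.0431), a call lost in 22 of 35 alternative settings. The related COR27 rose with ethanol by 1.25 in wild-type LD (adjusted p 0.00454), where it averaged 8.44 ± 0.37 against 7.19 ± 0.42 in mock, and was lower in ALC::TOC1 than in wild type there, at -1.24 (0.00983), a call lost in 4 of 35 settings. It was lower in LL than in LD in wild type, at -2.39 with ethanol (adjusted p 3.03e-06) and -1.33 in mock (0.00256).

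RVE6, a Myb-like transcription factor that activates evening genes, rose with ethanol in wild-type LL by 0.71 ± 0.15 (adjusted p 0.00217), in ALC::TOC1 LD by 0.51 (0.0178) and in wild-type LD by 0.49 (0.016). These calls were lost in 2, 6 and 5 of 35 alternative settings, in that order, the wild-type LL one with the GAPDH covariate and without replicate 1 of every group. TIC (TIME FOR COFFEE, a nuclear clock regulator) was lower in ALC::TOC1 than in wild type with ethanol, at -0.41 under LL (adjusted p 0.00272) and -0.33 under LD (0.0224), and fell with ethanol in ALC::TOC1 LD, at -0.36 (0.00931), calls lost in 1, 7 and 5 of 35 settings. It was also lower in LL than in LD in ALC::TOC1 mock, at -0.37 (0.00602). Between genotypes in mock, the TIC difference was -0.25 in LL (adjusted p 0.129) and -0.01 in LD (0.986), neither called. Its genotype by ethanol interaction was -0.16 in LL (adjusted p 0.631) and -0.32 in LD (0.311). Of the photoperiod list, CDF5, a Dof-type repressor of flowering of the kind that GI and FKF1 remove, averaged 8.66 ± 0.18 in ALC::TOC1 and 7.65 ± 0.44 in wild type with ethanol in LL, a difference of 1.01 ± 0.24 (adjusted p 0.00314). In LL mock the CDF5 difference between genotypes was 0.73 ± 0.24, not called (adjusted p 0.0702). Its genotype by ethanol interaction in LL was 0.28 ± 0.33 (adjusted p 0.769). SPY, an O-fucosyltransferase that interacts with GI, fell with ethanol in ALC::TOC1 LL, at -0.28 (0.0351), a call lost in 9 of 35 settings. LIP1, a small GTPase that affects the clock's period, was lower in LL than in LD in wild type with ethanol, at -0.40 (0.00575). SE (SERRATE, which acts in microRNA processing) was lower with ethanol in wild-type LD, at -0.26 (0.0452), and lower in LL than in LD in ALC::TOC1 mock, at -0.26 (0.048), calls lost in 23 and 24 of 35 settings. LIP1 and COR27 were also called in the genotype by light interaction with ethanol, at 0.45 (0.0483, lost in 26 of 35 settings) and 1.72 (0.0094), and COR28 in the light by ethanol interaction in wild type at -1.15 (0.0126). FIO1 passed in no comparison.

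**Figure D4:**
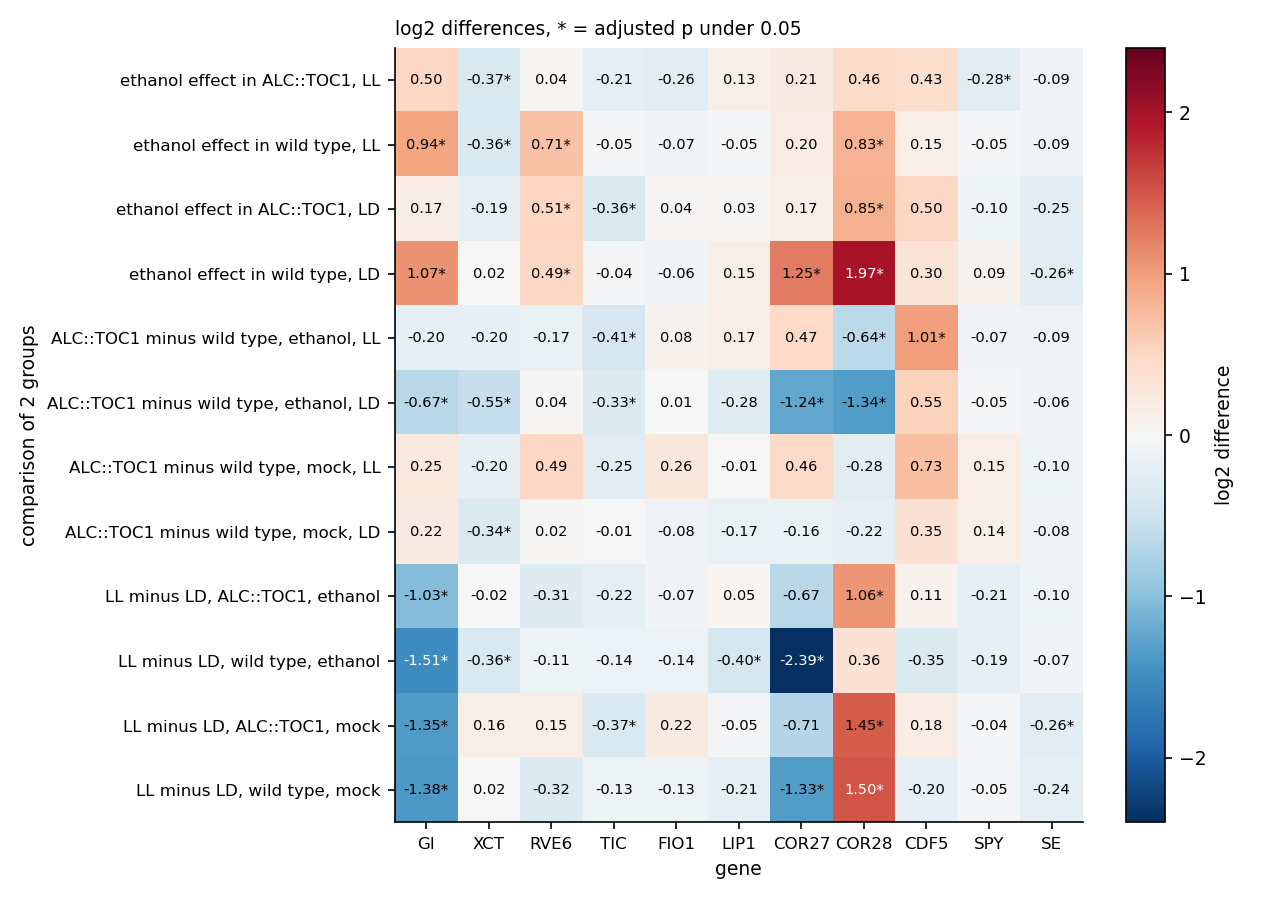
log2 differences of GI, XCT and the 9 measured list genes (x axis) in the 12 comparisons of 2 groups (y axis), coloured from blue (lower) to red (higher), with an asterisk where the adjusted p was under 0.05. GI is lower in LL than in LD in all 4 light comparisons, COR27 shows its lowest value, -2.39, in wild type with ethanol, and COR28 its highest, 1.97, for ethanol in wild-type LD.

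The genes most like GI and XCT were sought among 6377 named genes with a mean of at least 5, by Pearson correlation over the 24 arrays. For GI the 5 most alike were AT3G12760 (r = 0.939), AT5G53500 (0.934), AT5G42220 (0.933), AT4G16190 (0.931) and AT5G26760 (0.931), and 27 genes exceeded 0.9. Each of these 5 had its highest group mean in wild-type LD ethanol and its lowest in wild-type LL mock, as GI did. AT4G16190 averaged 11.3 ± 0.19 and 9.21 ± 0.29 in those groups, and AT3G12760, which changed less, 10.1 ± 0.07 and 9.39 ± 0.10. The 3 most opposed were AT3G53890 (-0.930), AT3G23550 (-0.929) and SIR, sulfite reductase (-0.894). For XCT no gene exceeded 0.9. The 5 most alike were AT5G42470 (0.860), AT4G02370 (0.847), AT4G12070 (0.812), AT4G18975 (0.801) and AT5G06560 (0.795), and the 3 most opposed were AT5G35740 (-0.880), GPDHp, a plastid glycerol-3-phosphate dehydrogenase (-0.821), and AT3G62930 (-0.816). Over the 8 group means in place of the 24 arrays, 3 of the 8 genes named for GI and 2 of the 8 for XCT held their places among the 5 most alike or 3 most opposed. Since arrays of a group share their condition, these correlations have no p, and genes known here only by locus number have no annotated role in the files.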

How the data were processed

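The deposited table holds 1 log2 expression value per probe set and array, which the authors made with RMA in the package affy, per the submitters' processing notes; the version is not given in the sources used here. RMA subtracts background, gives all arrays 1 distribution and joins the probes of a set, so a shift common to a whole array is largely removed. The table lists 22810 probe sets, and 22746 of them entered the tests, dim ones included, after 64 controls had been dropped. Names came from the platform's annotation table, which gave 1 gene for 13513 probe sets, and were matched to RefSeq loci (assembly TAIR10.1). For a gene with several probe sets the brightest stood for it.

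A model with 1 mean per group and no covariate was fitted to the 24 arrays in R 4.3.3 with limma 3.58.1 (lmFit, contrasts.fit and eBayes with default settings, two-sided). It left 16 residual and 4.87 prior degrees of freedom. P-values were adjusted by Benjamini-Hochberg over all probe sets within each of 20 comparisons. A fold is 2 to the power of the log2 difference. The script was tested on simulated data with known changes. Arrays give no counts or depth, and their number limits the precision. GI and XCT are named in every comparison, list genes where they were called, and beside them the 5 genes most like each and the 3 most opposed to it, by correlation. GI, XCT and the lists were chosen with earlier results of these data known. Alternatives were a filter on dim probe sets (5 log2 units on 3 arrays), a second quantile normalisation, median centring, eBayes with trend and robust settings, only the compared groups, weights per array, a block for the replicate number, a GAPDH covariate, and leaving out replicates. Same-numbered replicates were checked for pairing, and the labels do not say that a number marks a shared batch. No batch or date is given in the labels.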

Additional observations from a re-analysis of the deposited data

How the results depend on the processing

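Each of the 40 differences of GI and XCT was recomputed under 35 alternatives, 27 of which leave out arrays. No called value changed sign, and 19 of the 40 kept their direction and their side of the threshold under all 35. The LL minus LD differences of GI and its wild-type LD ethanol rise (0.73 to 1.33 with arrays left out) were called under every alternative.

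With arrays centred on their medians, the XCT ethanol effect in ALC::TOC1 LL (-0.27, adjusted p 0.0945) and the XCT genotype difference in LD mock (-0.35, 0.0566) were no longer called, and the XCT genotype by light interaction with ethanol was (0.50, 0.0232). A second quantile normalisation added calls for that interaction (0.43, 0.0306) and for the GI ethanol effect in ALC::TOC1 LL (0.60, 0.0487), and the filter on dim probe sets for that interaction (0.35, 0.0486). The trend and robust settings (-0.34, 0.0646) and a fit of only the compared groups (-0.34, 0.0783) ended the XCT LD mock call. A fit of only the compared groups (0.50, 0.0077) and array weights (0.48, 0.0421) called the GI ethanol effect in ALC::TOC1 LL. Array weights also called the GI genotype by ethanol mean (-0.61, 0.0409) and the GI genotype by light interaction with ethanol (0.65, 0.0483). The cause was not tested.

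With arrays left out, GI ranged from 0.44 to 0.56 for ethanol in ALC::TOC1 LL, 0.77 to 1.10 in wild-type LL, -0.87 to -0.52 between genotypes with ethanol in LD, -1.24 to -0.43 for the genotype by ethanol interaction in LD, -0.85 to -0.45 for its mean and 0.14 to 0.86 for genotype by light with ethanol. XCT ranged from -0.42 to -0.34 for ethanol in ALC::TOC1 LL, -0.41 to -0.29 in wild-type LL, -0.63 to -0.47 between genotypes with ethanol in LD, -0.42 to -0.29 in LD mock, -0.46 to -0.24 for light in wild type with ethanol, -0.55 to -0.16 for light by ethanol in wild type and 0.27 to 0.43 for genotype by light with ethanol. At least 1 of these sets of arrays changed a call for each.

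Signs changed 44 times, in 8 differences that were not called under any setting and whose reported values ran from -0.13 to 0.45. With arrays left out these ranged, for XCT, from -0.12 to 0.14 (ethanol in wild-type LD), -0.0725 to 0.0654 (light in ALC::TOC1 with ethanol), -0.078 to 0.0877 (light in wild-type mock) and -0.14 to 0.0587 (genotype by ethanol in LL), and for GI from -0.0903 to 0.41 (genotype in LD mock), -0.0444 to 0.77 (genotype by ethanol, LL minus LD), -0.41 to 0.29 (light by ethanol in wild type) and -0.20 to 0.30 (genotype by light in mock). Quantile normalisation gave XCT 0.0486 for light in ALC::TOC1 with ethanol and 0.0552 for genotype by ethanol in LL; centring gave 0.0325 and 0.0576 for these and -0.0022 for light in wild-type mock. Array weights gave XCT -0.0083 for ethanol in wild-type LD, -0.0115 for light in wild-type mock and 0.025 for genotype by ethanol in LL, and GI -0.0235 for genotype in LD mock and 0.0336 for light by ethanol in wild type. The GAPDH covariate gave XCT 0.0194 for genotype by ethanol in LL and GI -0.0389 for genotype by light in mock.

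Same-numbered replicates were taken as paired only if all 3 pairs of a comparison correlated above 0.1. That was met in 0 of 12 comparisons, with correlations of -0.399 to 0.488. Ethanol against mock in wild-type LL gave 0.335, 0.0997 and 0.488, so it missed narrowly. Such a rule cannot show that the numbers carry no shared effect. With the replicate number as a block, no call of GI or XCT changed, and the GI ethanol effect was 0.50 in ALC::TOC1 LL (adjusted p 0.0718) and 0.94 in wild-type LL (0.00144). An alternative probe set could not be tried, since GI and XCT have 1 each.

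Counts of called list genes, small to begin with, also moved. By limma's test the alternatives gave 1 (dim filter) and 2 (array weights) against 0 for the genotype difference in LL mock, and 1 (only compared groups) against 0 in LD mock. Counts against 1 were 0 for ethanol in ALC::TOC1 LL (centring, compared groups), 0 for the mean genotype by ethanol interaction (quantile, centring, block, GAPDH) and 0 for light by ethanol in wild type (GAPDH), and 3 for light in ALC::TOC1 with ethanol (array weights). Counts against 2 were 1 for genotype by light with ethanol (trend, compared groups, block, GAPDH), 1 for ethanol in wild-type LL (GAPDH) and 4 for light in wild-type mock (array weights). Ethanol gave 2 against 4 in wild-type LD (compared groups) and 5 against 3 in ALC::TOC1 LD (array weights), and genotype by ethanol 1 against 0 in LL and in LD (array weights). With arrays left out, counts ran from 0 to 4 for ethanol, 0 to 5 for genotype, 1 to 4 for light and 0 to 3 for interactions.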

Other observations

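Within groups, after each group's mean was taken from its arrays, the gene that followed GI most closely among the 8 named for it was an opposed one: AT3G23550, with a correlation of -0.834 over the 24 deviations, against 0.423 to 0.619 for the 5 most alike. AT3G23550 ranged from 8.63 to 11.5 over the arrays, with its highest group mean in wild-type LL mock and its lowest in wild-type LD ethanol, where those of GI are lowest and highest. For XCT the deviations of the 8 named genes correlated with its own by at most 0.485. These correlations describe genes picked for their likeness and have no test.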
